A study of Homo sapiens with 4 samples.

Results

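GDF15, TGFA, PGF and SULF2 are 4 genes whose products leave the cell to act as growth factors or to edit the extracellular matrix, and they were taken by name from the 20136 protein-coding genes annotated on GRCh37. A p53 peak was counted for a gene when its summit lay in the gene body or within 25 kb of it, and the 20-bp p53 response elements (REs) that the study lists for these genes were followed at any distance. The list of REs used here holds 1356 entries from the study's source data, slightly fewer than the study states in its text, and shares of listed REs are taken over these entries, of which 7 belong to these genes: 3 to GDF15, 2 to TGFA and 1 each to PGF and SULF2.

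The data are ChIP-seq peaks (chromatin immunoprecipitation and sequencing) obtained with an antibody to p53 (FL393) from H1299, a lung cancer line of human origin that lacks endogenous p53. All cells were stable lines that express the Tet repressor and in which tetracycline (Tet) induces either wild-type (WT) p53 or the K120R form, where Lys120 is changed to arginine. Libraries were made from both lines without Tet and after 24 h of Tet, at a dose that the labels state per µl and the methods per ml, which made 4 conditions with 1 library each. There was thus no replicate spread and no test was run, and the intervals given with fragment counts are exact 95% Poisson intervals that cover counting error only. The ChIP libraries held 33059650 to 34857204 tags. Fragments were taken as 170 bp in the Tet-treated WT library and as 64 to 68 bp in the other 3, so fold enrichment (the pileup of fragments at the summit over the local background) was read within each list of peaks, and lists were compared by whether a peak was present. The calling of peaks also depends on the fragment length, so the presence of a peak is not free of this difference. Ratios between lists are given only beside the same ratio at the other listed REs.

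The transcription factor p53 binds DNA as a tetramer, and its RE consists of a pair of decameric half-sites, each with a CWWG core (W being A or T). GDF15 is a stress-induced cytokine of the TGF-beta family, TGFA a ligand of the EGF receptor, and PGF a member of the VEGF family that binds the receptor FLT1. SULF2 is an extracellular sulfatase that removes 6-O-sulfate groups from heparan sulfate, a glycan of the cell surface and matrix that binds many growth factors. GDF15 is a widely used marker of p53 activity.

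The 7 listed REs are shown first, because the binding described afterwards is centred on them. They are read 5′ to 3′ on the strand of the list, in GRCh37, with the RE in capitals. For REs outside exons, 60 bp of the reference are added to each side in lower case.
GDF15 RE 21.2 kb upstream (minus strand), chr19:18475797-18475816: AGACATGCCGGGACATGCAG
GDF15 RE 12.2 kb upstream (minus strand), chr19:18484697-18484836: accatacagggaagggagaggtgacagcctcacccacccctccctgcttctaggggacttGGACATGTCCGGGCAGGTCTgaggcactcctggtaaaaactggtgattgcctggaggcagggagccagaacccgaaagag
GDF15 RE 37 bp downstream of the start (plus strand), chr19:18496996-18497015: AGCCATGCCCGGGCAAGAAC
TGFA RE 16.5 kb upstream (plus strand), chr2:70797350-70797489: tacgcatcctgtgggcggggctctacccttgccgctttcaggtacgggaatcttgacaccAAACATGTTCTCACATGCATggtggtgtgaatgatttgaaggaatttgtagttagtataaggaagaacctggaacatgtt
TGFA RE 43.3 kb upstream (minus strand), chr2:70824162-70824301: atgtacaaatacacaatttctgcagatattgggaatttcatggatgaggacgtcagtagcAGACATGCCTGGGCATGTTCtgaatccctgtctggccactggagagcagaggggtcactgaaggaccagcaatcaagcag
PGF RE 2.40 kb downstream of the start (plus strand), chr14:75419836-75419975: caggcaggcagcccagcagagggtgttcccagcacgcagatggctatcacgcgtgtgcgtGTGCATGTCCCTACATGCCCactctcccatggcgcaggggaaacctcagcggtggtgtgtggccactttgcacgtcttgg
SULF2 RE 208 kb upstream (minus strand), chr20:46621947-46622086: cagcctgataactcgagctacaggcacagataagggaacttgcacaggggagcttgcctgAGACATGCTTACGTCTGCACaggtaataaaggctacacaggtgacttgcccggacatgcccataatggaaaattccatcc

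Distances are counted from the start of the representative (MANE Select) transcript. GDF15 spans chr19:18485541-18499986 on the plus strand, TGFA chr2:70674416-70781325, PGF chr14:75408537-75422329 and SULF2 chr20:46284941-46415360, these 3 on the minus strand. The farthest of the GDF15 REs lies in an untranslated region of the neighbouring gene PGPEP1, 9.74 kb outside the annotated GDF15 body, which extends upstream of the representative start. The middle RE of GDF15 is intergenic and lies 775 bp outside the gene body, and the third overlaps the start of the GDF15 coding sequence. Both TGFA REs are intergenic. The nearer lies 16.1 kb from the TGFA body, whereas the farther lies 42.9 kb from it and 10519 bp from ADD2, which is the closest protein-coding gene. The PGF RE lies in an intron of PGF. The SULF2 RE is intergenic, 207 kb from SULF2, which is still its nearest protein-coding gene. The nearest annotated gene of any type is LINC01522, at 3145 bp.

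Compared with the 20-bp p53 consensus, the TGFA RE 43.3 kb upstream had 0 mismatches and the GDF15 RE 12.2 kb upstream had 1, which falls at position 16 in a CWWG core (positions count from 1 at the 5′ end as shown). The other 2 GDF15 REs, the nearer TGFA RE and the PGF RE each had 3 mismatches, all of them outside the cores. The SULF2 RE had 4, of which 2 were in the core of the second half-site. The bases at positions 3, 8, 13 and 18 flank the cores. G/C bps there numbered 1 in the GDF15 RE 12.2 kb upstream and the nearer TGFA RE. They numbered 2 in the GDF15 RE 21.2 kb upstream, the farther TGFA RE and the PGF RE, and 3 in the GDF15 RE at the gene start and in the SULF2 RE. The 4 genes thus hold no RE with 0 or with 4 G/C bps at these positions. For comparison, windows of 301 bp centred on summits of the Tet-treated WT list held a 20-bp match with at most 3 mismatches on either strand in 82.2% of cases and a match with 0 mismatches in 5.78%, and windows 3000 bp to either side held a match with at most 3 in 7.69%.

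Binding at these REs followed 3 patterns. In Tet-treated WT cells 7 of the 7 REs lay under a peak, beside 98.4% of all listed REs, a share that says little because the study drew its list from sites bound by WT p53. In Tet-treated K120R cells 6 of 7 did, beside 40.0% of all listed REs, and in untreated WT cells 4 of 7 did, beside 23.5%. In untreated K120R cells 0 of 7 did, beside 0.0737%, in a list of only 12 peaks. Both upstream GDF15 REs and the farther TGFA RE were bound in the 3 libraries other than untreated K120R cells, a pattern shared by 207 of the listed REs. The GDF15 RE at the gene start, the nearer TGFA RE and the PGF RE were bound in both Tet-treated libraries alone, as were 333 listed REs. The SULF2 RE was bound in both WT libraries and in neither K120R library, as were 110. None of the 7 was among the 683 listed REs bound in Tet-treated WT cells alone.

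**Figure D1:**
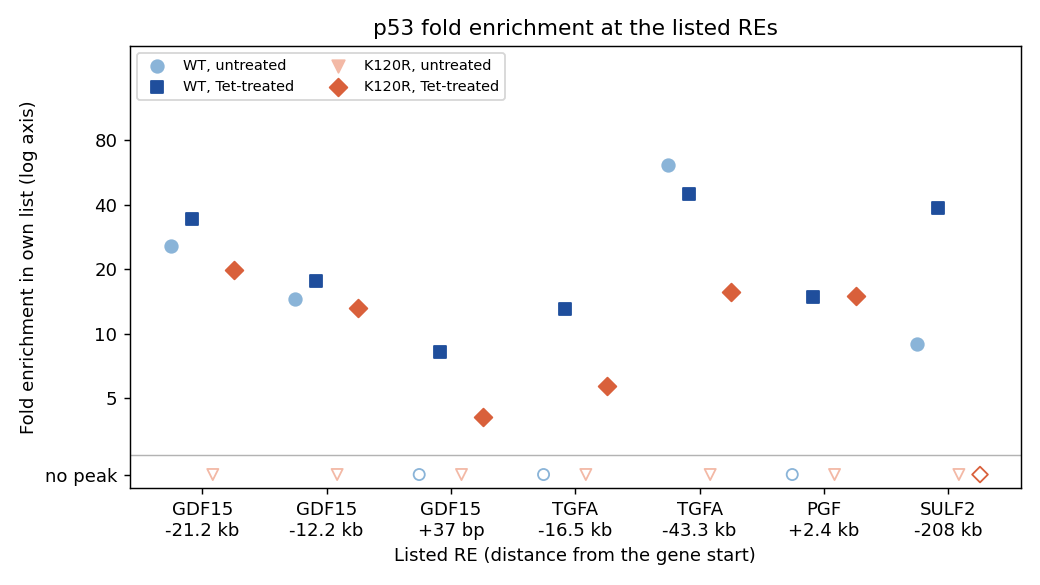
Fold enrichment of the peak at each of the 7 listed REs (logarithmic axis), with 1 point per library; open symbols below the grey line mark libraries without a peak. The farther TGFA RE carries the highest point, 61.3 in untreated WT cells, and the SULF2 RE has no K120R point above the line.

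Counted by gene, a summit fell in the window of 1 of the 4 genes in untreated WT cells (GDF15), beside 2.60% of all protein-coding genes. The count was 3 of 4 in Tet-treated WT cells, beside 19.1%, and 3 of 4 in Tet-treated K120R cells, beside 9.48%, these being GDF15, TGFA and PGF on both occasions. It was 0 of 4 in untreated K120R cells, beside 0.0348%. SULF2 had no summit within 25 kb in any library. GDF15, TGFA and PGF each have a listed RE inside the window. The list holds sites bound by WT p53, so their count in Tet-treated WT cells says little beside the share of all genes. The summits just inside the 25 kb limit lay 21.0 kb from PGF (Tet-treated K120R cells, fold enrichment 5.27) and 16.1 kb from TGFA (Tet-treated WT cells, 12.99), and the nearest outside it lay 42.9 kb from TGFA, at its farther RE. For the other genes the nearest outside in the Tet-treated WT list lay 88.4 kb from GDF15, with a fold enrichment of 9.75, 175 kb from PGF, with 4.12, and 187 kb from SULF2, with 6.98.

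**Figure D2:**
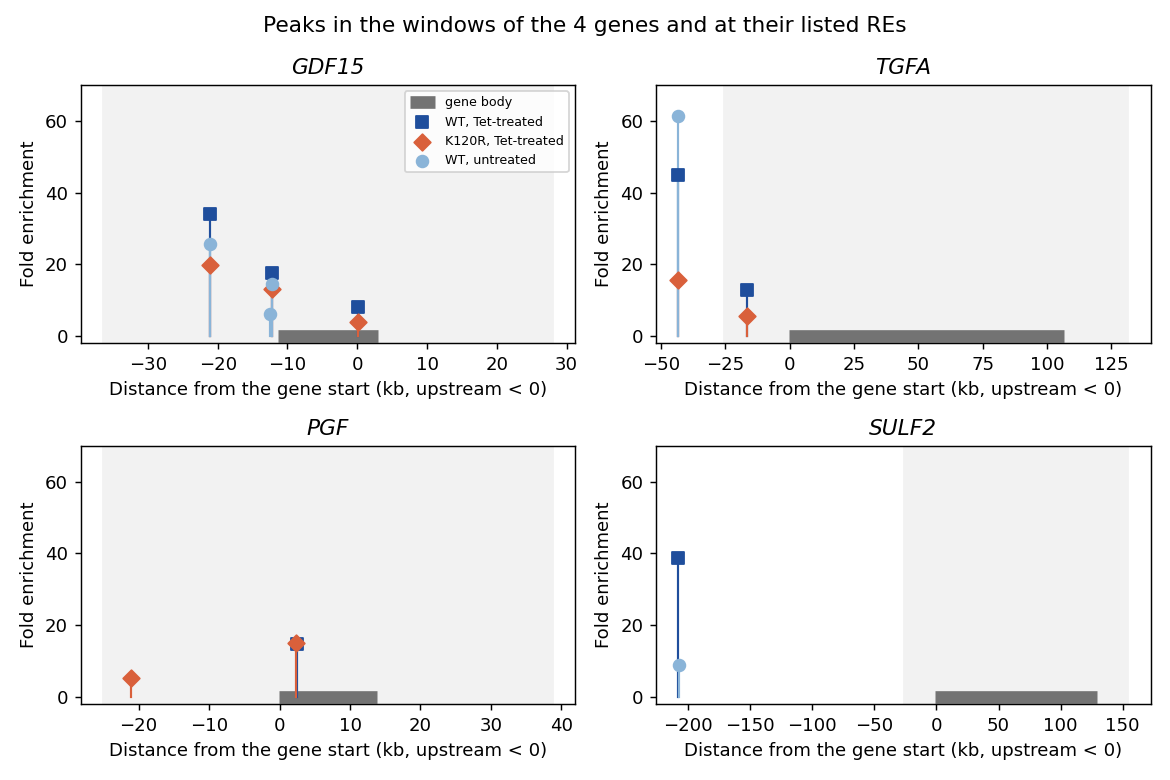
Position of every peak in the 4 windows and at the listed REs, as distance of the summit from the gene start in kb (upstream negative), against its fold enrichment; the grey bar is the gene body, the light band the gene body with 25 kb on each side, and symbols give the library. GDF15 has peaks at 3 places in its window, whereas the SULF2 peaks lie 208 kb upstream, outside the band.

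GDF15 had the largest number of bound REs of the 4 genes, with p53 at 3 separate REs, although the highest single fold enrichment was at TGFA. After Tet it had 3 summits in its window in both libraries, and at least 3 were found at 135 protein-coding genes of 20136 in WT cells and at 51 in K120R cells. In untreated WT cells it also had 3, of which 1 is a small side peak described below that is lost at a -log10 q of at least 5 and that leaves 2 REs bound. Only 9 of the 1240 genes named in the list of REs have at least 3 listed REs.

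The RE 21.2 kb upstream of GDF15 carried the strongest of its peaks. Fold enrichment there was 25.7 in untreated WT cells, 34.1 in Tet-treated WT cells and 19.8 in Tet-treated K120R cells, with no peak in untreated K120R cells. These peaks ranked 22 of 488, 147 of 4326 and 43 of 2023 in their lists, or percentiles 95.7, 96.6 and 97.9, so the site stood near the top of every list that held it. The summits were 25, 5 and 26 bp from the centre of the RE.

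The RE 12.2 kb upstream of GDF15, which departs from the consensus at a core position, was bound in the same 3 libraries and less strongly in each. Its fold enrichment was 14.6 in untreated WT cells, 17.7 in Tet-treated WT cells and 13.1 in Tet-treated K120R cells, which put it at the percentiles 87.3, 86.4 and 91.7 of the peaks of each list. In untreated WT cells a further, small peak was called beside it, at chr19:18484353-18484431, with 12 fragments (95% interval 6.20 to 21.0) and a fold enrichment of 6.10. That peak holds no 20-bp window with fewer than 7 mismatches, and it falls within the span of the single broad peak of Tet-treated WT cells (chr19:18484325-18485216), so the 3 summits of untreated cells mark 2 bound REs.

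The RE at the GDF15 start was weaker and was bound after Tet alone. Its fold enrichment was 8.23 in Tet-treated WT cells, with 43 fragments (31.1 to 57.9) and at percentile 54.1 of the list, and 4.07 in Tet-treated K120R cells, with 12 fragments (6.20 to 21.0) and at percentile 4.40. The K120R peak was among the weakest of its list, with a -log10 q of 1.98. The 3 GDF15 REs thus kept 1 order in both Tet-treated libraries, from the farthest upstream to the gene start, and the RE nearest the consensus by number of mismatches was the middle of the 3.

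The 2 REs of TGFA differed in strength and in the libraries that bound them. At the RE 43.3 kb upstream, the only 1 of the 7 without a mismatch, fold enrichment was 61.3 in untreated WT cells, which was rank 1 of the 488 peaks of that list. It was 44.8 in Tet-treated WT cells (rank 64 of 4326) and 15.7 in Tet-treated K120R cells (rank 92 of 2023). The RE was thus near the top of all 3 lists, although TGFA is not its closest gene. The summits were 8, 9 and 3 bp from its centre.

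The RE 16.5 kb upstream of TGFA had peaks after Tet alone. Fold enrichment was 12.99 in Tet-treated WT cells, with 66 fragments (51.0 to 84.0) at percentile 76.8, and 5.71 in Tet-treated K120R cells, with 15 fragments (8.40 to 24.7) at percentile 30.2. The summits were 38 and 82 bp from the centre of the RE. A second window with 3 mismatches, 2 of them in a core, lies 61 bp farther upstream of TGFA at chr2:70797471-70797490. Its centre was 24 bp from the WT summit and 21 bp from the K120R summit.

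PGF was the gene at which both forms of p53 gave nearly the same fold enrichment. At its intronic RE this was 14.86 in Tet-treated WT cells and 14.97 in Tet-treated K120R cells, with no peak in either untreated library. The summits had scaled pileups of 88.2 over a local background of 5.00 and of 43.9 over 2.00, which correspond to 91 (73.3 to 112) and 47 (34.5 to 62.5) unscaled fragments, and the peaks stood at percentiles 81.2 and 94.8 of their lists. The near-equal fold thus came with unequal fragment counts, in libraries counted with unequal fragment lengths.

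PGF also had the single peak near these genes that was called for K120R p53 and not for WT p53. It lay 21.0 kb outside the gene at chr14:75443094-75443362, with 13 fragments, a fold enrichment of 5.27, a -log10 q of 4.01 and percentile 20.2 of the K120R list. Its whole sequence is shown on the plus strand because no listed RE lies in it, with a 20-bp window that has 3 mismatches, 1 of them in a core, in capitals.
PGF K120R peak, chr14:75443094-75443362: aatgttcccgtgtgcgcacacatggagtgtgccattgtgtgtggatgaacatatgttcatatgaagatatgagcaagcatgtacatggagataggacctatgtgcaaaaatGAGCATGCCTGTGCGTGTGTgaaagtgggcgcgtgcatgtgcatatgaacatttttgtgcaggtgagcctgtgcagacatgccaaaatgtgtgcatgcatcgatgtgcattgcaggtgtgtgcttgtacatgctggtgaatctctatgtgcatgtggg
The centre of that window was 97 bp from the summit, and a further window with 3 mismatches, 1 in a core, at chr14:75443269-75443288 was 33 bp from it. Windows of 301 bp at summits of the K120R list held a match with at most 3 mismatches in 63.7% of cases, and those 3000 bp away in 7.54%.

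SULF2 differed from the other genes in having no K120R peak and no peak near the gene. At its RE 208 kb upstream, fold enrichment was 8.97 in untreated WT cells, with 16 fragments (9.15 to 25.98) at rank 174 of 488, and 38.7 in Tet-treated WT cells, with 128 fragments (107 to 152) at rank 111 of 4326. The peak of Tet-treated WT cells thus outranked those at the farthest GDF15 RE and at PGF, which K120R p53 also bound. The Tet-treated K120R list reaches down to 8 fragments, and a site without a peak may still hold fragments that did not pass the threshold.

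The listed SULF2 sequence, the poorest match of the 7, was not the only candidate under the Tet-treated WT peak. Allowing an insert between the half-sites gave a window with 0 mismatches around a 1-bp insert, which overlaps the listed RE and whose centre was 3 bp from the summit. A window without an insert and with 1 mismatch, outside the cores, starts 41 bp away and its centre was 49 bp from that summit. Both are shown on the strand of the listed RE, the first with its insert in lower case.
SULF2 spaced window, chr20:46622017-46622037: GAGCTTGCCTgAGACATGCTT
SULF2 window with 1 mismatch, chr20:46621966-46621985: TGACTTGCCCGGACATGCCC
The spaced window has 3 G/C bps at the 4 flanking positions and the other has 2. In 301-bp windows at summits of the Tet-treated WT list, a match with 0 mismatches around an insert of 1 to 13 bp was found in 2.54%, and in those 3000 bp away in 0.0462%. Among all listed REs with a peak in Tet-treated WT cells, 11.1% had a window under that peak with fewer mismatches than the RE itself. In untreated WT cells the summit was 190 bp from the centre of the listed RE and 149 bp from the window with 1 mismatch, so the 2 WT libraries did not place the summit at the same spot.

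To compare the forms of p53 at these REs, the fold enrichment of Tet-treated K120R cells was divided by that of Tet-treated WT cells and set beside the 541 listed REs with both peaks, whose median ratio was 0.458 (quartiles 0.303 and 0.692). The PGF RE had a ratio of 1.01, at percentile 91.7 of those REs. The GDF15 REs had ratios of 0.579 for the farthest, 0.742 for the middle and 0.495 for the RE at the gene start, at percentiles 64.3, 80.2 and 54.0. Those of TGFA were 0.439 for the nearer and 0.349 for the farther, at percentiles 48.2 and 32.5. PGF and the middle GDF15 RE therefore lay high in the distribution, and the RE without a mismatch lay in its lower part.

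G/C bps at the 4 positions beside the cores are a sequence feature that the study examined, and they were counted here on the sequences as listed, so the classes need not hold the same numbers of REs as the study's own. In the 1334 listed REs with a Tet-treated WT peak a K120R peak was present in 55.7% of those with 1 such bp, 34.3% of those with 2 and 18.3% of those with 3. The 2 REs with 1 (GDF15 12.2 kb upstream and TGFA 16.5 kb upstream) and the 3 with 2 (GDF15 21.2 kb upstream, TGFA 43.3 kb upstream and PGF) all had a K120R peak. Of the 2 with 3, the GDF15 RE at the gene start had the weak K120R peak described above and the SULF2 RE had none.

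**Figure D3:**
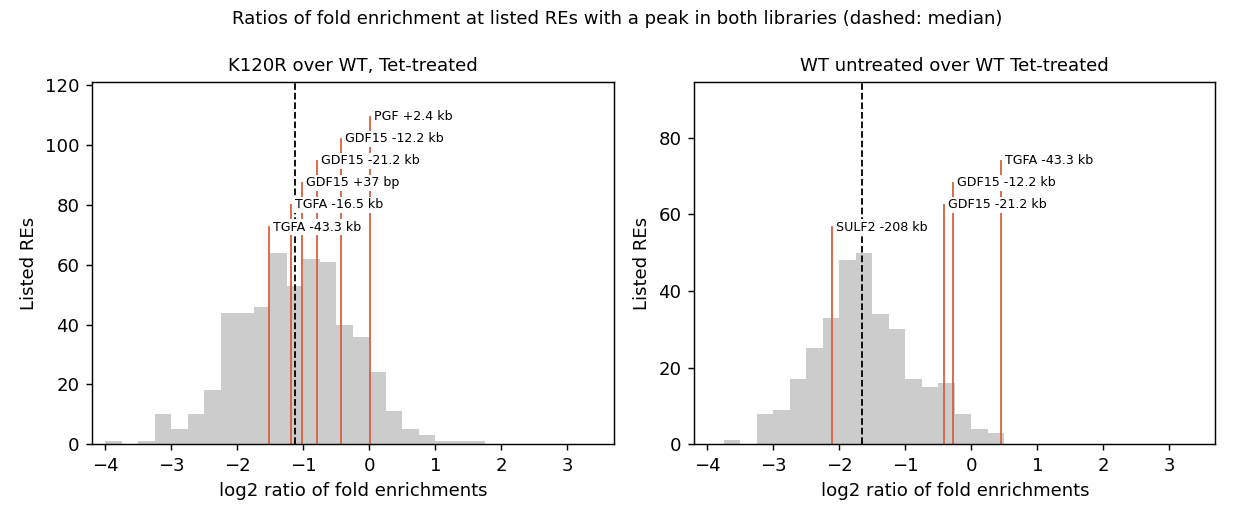
Histograms of the log2 ratio of fold enrichment at listed REs with a peak in both libraries, K120R over WT after Tet on the left and untreated over Tet-treated WT on the right; the dashed line is the median and red lines mark the REs of the 4 genes. PGF has a ratio of 1.01 on the left, and TGFA 43.3 kb upstream a ratio of 1.37 at the right end of the other histogram.

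Binding without Tet was set out in the same way. The ratio of untreated to Tet-treated WT cells had a median of 0.319 over the 318 listed REs with both peaks. It was 1.37 at the farther TGFA RE, at percentile 99.7, and of the 4 REs with both peaks this alone had the higher fold enrichment in the untreated library. The fragments at its summit numbered 117 (96.8 to 140) in untreated and 323 (289 to 360) in Tet-treated WT cells, over local backgrounds of 0.926 and 6.00. The higher fold thus does not show more fragments without Tet. Because 1 tag was kept per position, fragment length (64 and 170 bp) limits how high such counts can rise. The counts therefore cannot say in which library binding was stronger, and their intervals leave this limit out. GDF15 had 0.752 at the farthest RE and 0.825 at the middle RE, at percentiles 92.5 and 94.97, whereas SULF2 had 0.232, at percentile 25.5. At the same GDF15 REs the fragments at the summit were 66 and 37 in untreated and 220 and 163 in Tet-treated WT cells. The upstream GDF15 REs and the farther TGFA RE were thus at the high end of the ratio of folds. All 3 had fewer fragments without Tet. Fragments were taken as 64 bp there and as 170 bp after Tet, so the lower counts do not by themselves show weaker binding.

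The untreated WT and Tet-treated K120R libraries had similar fragment lengths (64 and 68 bp), so their fragments over the summit per 1000000 ChIP tags were set side by side at the 3 REs with a peak in both. At the GDF15 RE 21.2 kb upstream they were 2.00 in untreated WT cells and 1.98 in Tet-treated K120R cells, and at the RE 12.2 kb upstream they were 1.12 and 1.18, with intervals that overlap widely. At the TGFA RE 43.3 kb upstream they were 3.54 (2.93 to 4.24) and 1.89 (1.46 to 2.41), and these intervals do not overlap. By these counts the libraries gave like values at both GDF15 REs and unlike values at TGFA, with 1 library each. The counts were not set beside those at other listed REs. With 1 tag kept per position, fragment length limits high counts such as that at TGFA, which the intervals leave out. The ratio of fold enrichment between the same libraries was 0.256 at TGFA, at percentile 2.40 of the 208 listed REs with both peaks (median 1.03), and 0.769 and 0.899 at the GDF15 REs.

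**Figure D4:**
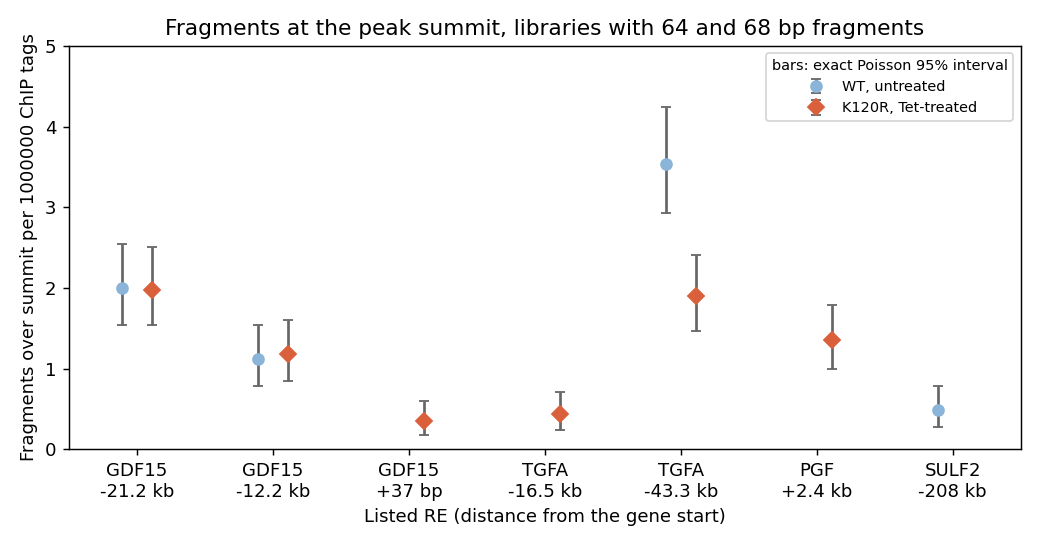
Fragments over the summit per 1000000 ChIP tags at the listed REs in the untreated WT and the Tet-treated K120R library, with exact Poisson 95% intervals; REs without a peak in a library have no point. The points of the libraries overlap at both upstream GDF15 REs, and at TGFA 43.3 kb upstream the untreated WT value of 3.54 lies above the K120R value of 1.89.

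The listed REs whose fold enrichments were most like those of each gene's strongest RE were found by the Euclidean distance of log2(fold enrichment + 1) over the 4 libraries, with absent peaks at 0, and are named by their nearest protein-coding gene, which can be far away. For GDF15 these were an RE in GADD45A (distance 0.391) and an RE in ANKRD11 (0.695), and for the farther TGFA RE they were an RE 42251 bp from IER5 (0.579) and an RE 52621 bp from H6PD that is listed for MIR34A (0.674). For PGF they were an RE 2824 bp from TBX2 (0.0610) and an RE 26265 bp from PDE4B (0.0668), and for SULF2 an RE 427963 bp from ARAP2 (0.141) and an RE in MAST2 (0.167). The RE in GADD45A, a DNA damage response gene, had fold enrichments of 20.3 in untreated WT cells, 39.5 in Tet-treated WT cells and 19.1 in Tet-treated K120R cells.

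Genes of the same families and of the same matrix glycan were then examined with the same window. Of 111 such genes other than the 4 described, 4 (3.60%) had a summit in the window in untreated WT cells, 28 (25.2%) in Tet-treated WT cells, 0 in untreated K120R cells and 14 (12.6%) in Tet-treated K120R cells. The shares lie a little above those of all protein-coding genes in the 3 libraries other than untreated K120R cells, and the genes are also longer, with a median of 48.3 kb beside 27.2 kb, which widens their windows. The counts also moved with the threshold: with the 4 genes included, they went from 17 to 6 in Tet-treated K120R cells and from 5 to 2 in untreated WT cells at a -log10 q of at least 10. The part of gene length in the shares was not tested. The median number of summits per gene was 0 in every list, as it was over all genes.

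**Figure D5:**
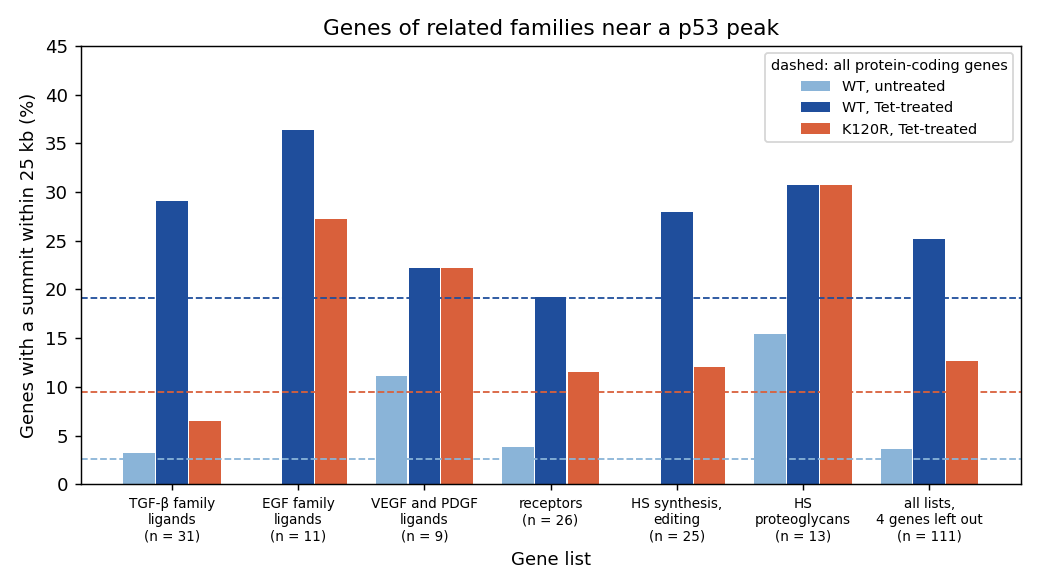
Share of genes with a summit in the gene body or within 25 kb for 6 gene lists and for all lists without the 4 genes described; bars are the 3 libraries with peaks near these genes, n is the number of genes, and dashed lines are the shares over all 20136 protein-coding genes (2.60%, 19.1% and 9.48%). Most lists hold few genes, so that 1 gene moves a bar of the VEGF and PDGF list by 11.1 percentage points.

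Among ligands of the TGF-beta family, 9 of 31 had a summit in Tet-treated WT cells and 2 of 31 in Tet-treated K120R cells, GDF15 included. The neighbouring genes INHBC and INHBE were both counted through the same WT peak. After GDF15 the largest WT fold enrichments were 9.08 at GDF3, 8.60 at MSTN (myostatin, which limits muscle growth) and 8.36 at GDF5 (a factor of joint and cartilage formation). GDF5 alone of these also had a K120R peak, with 6.25. No other ligand of the family had a peak in untreated WT cells, and every other WT peak was below the 34.1 of GDF15.

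Among ligands of the EGF family, TGFA included, 4 of 11 had a summit in Tet-treated WT cells and 3 of 11 in Tet-treated K120R cells. Within the 25 kb windows, which leave out the farther TGFA RE, the largest fold enrichment of Tet-treated WT cells was at EREG (epiregulin) with 32.7, followed by TGFA, NRG1 (8.92) and NRG3 (5.82). The EREG summit lay 48.5 kb from the start of the annotated gene body. In the same windows of Tet-treated K120R cells NRG1 had 7.22, EREG 6.20 and TGFA 5.71. The NRG1 peak lay away from the stronger of the 2 WT peaks of that gene. The EREG value belongs to the stronger of 2 peaks, which overlaps no listed RE. Of the VEGF and PDGF ligands 2 of 9 had a summit in both Tet-treated libraries, PGF and PDGFC. PDGFC, a ligand of the PDGF receptors, had fold enrichments of 12.9 in untreated WT cells, 47.4 in Tet-treated WT cells and 14.98 in Tet-treated K120R cells, so it exceeded PGF for WT p53 and was close to it for K120R p53.

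Of the receptors for these ligands 5 of 26 had a summit in Tet-treated WT cells and 3 of 26 in Tet-treated K120R cells. ERBB4, a receptor of the EGF receptor family, led with 4.99 in untreated WT cells, 41.7 in Tet-treated WT cells and 12.6 in Tet-treated K120R cells. NRP2, a co-receptor for VEGF ligands, followed with 9.87, BMPR2 with 9.55 and PDGFRB with 5.02, all in Tet-treated WT cells. EGFR, the receptor of TGFA, had weak peaks of 4.45 (WT p53) and 5.17 (K120R p53) at different places in the gene, and TGFBR3 a K120R peak of 5.94.

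Of the enzymes that build and edit heparan sulfate, SULF2 included, 7 of 25 had a summit in Tet-treated WT cells and 3 of 25 in Tet-treated K120R cells. HS6ST2, a 6-O-sulfotransferase that adds the kind of group SULF2 removes, had the largest WT fold enrichment with 18.8, followed by HS3ST3A1 with 11.8 and HS3ST6 with 10.7. K120R peaks were present at HPSE2 (4.70, far from its WT peak), EXT1 (5.58) and HS3ST3A1 (4.38). Of the heparan sulfate proteoglycans, the proteins that carry this glycan, 4 of 13 had a summit in each Tet-treated library. GPC6 had 8.41 in untreated WT cells, 41.0 in Tet-treated WT cells and 17.5 in Tet-treated K120R cells, GPC3 7.29 and 21.1 in the WT libraries, and SDC4 10.6 and 4.85 in the Tet-treated WT and K120R libraries. GPC1 had peaks at different sites in these libraries, with 5.14 in the WT list and 9.28 in the K120R list, and AGRN had a K120R peak of 6.57 alone.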

How the data were processed

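Peaks of p53 ChIP-seq were analysed in 4 libraries, 1 per condition, grouped by their labels. Reads were aligned to GRCh37 by the authors, who ran MACS 2.1.1.20160309 on every library with its input as control, kept 1 tag per position and set the q-value limit at 0.05. The deposited pileup is a signal height in fragments at the summit, scaled by the authors where ChIP was larger than input. Fold enrichment, also deposited, is the ratio of the pileup plus 1 to the local background plus 1. The authors' p-values and q-values were deposited on the -log10 scale. Narrow-peak and summit lists of the same peaks were not used.

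Fragments were recovered by dividing the pileup by the scale, and all came out whole within 0.02. A peak was assigned to an RE on an overlap of at least 1 bp. Positions and sequences of REs came from the study's source data and were matched to the GRCh37 sequence, and genes from GENCODE release 44 mapped to GRCh37. Mismatches were counted against the consensus RE by name, on both strands. Python 3.11.15, numpy 2.4.6, pandas 2.3.3, scipy 1.17.1 and matplotlib 3.10.9 were used, and the scripts were tested on simulated data.

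Named are the 4 genes with every peak and RE, up to 4 genes per list with the largest Tet-treated WT fold enrichment, every list gene with a Tet-treated K120R peak, and the 2 nearest REs by likeness. Members, lists and rules were chosen with earlier results of these data known. Expression, reporter and structural experiments of the study were not analysed here.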

Additional observations from a re-analysis of the deposited data

How the results depend on the processing

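Thresholds on -log10 q of at least 5 or 10 or on fold enrichment of at least 5, flanks of 10 or 50 kb, stricter rules for a peak at an RE and an insert in the motif were tried in place of the settings used. Of 45 counts above 0 so compared, 40 stayed within 1.5 times, and the counts in untreated K120R cells were 0 throughout. The peaks in the 4 windows fell from 6 to 3 in Tet-treated K120R cells at a -log10 q of at least 10. List genes with a summit, the 4 genes included, went from 5 to 2 in untreated WT cells at that threshold and to 9 with a flank of 50 kb. In Tet-treated K120R cells they went from 17 to 11 at a -log10 q of at least 5 and to 6 at 10. The K120R peak at the GDF15 start was lost under every stricter threshold, that at TGFA 16.5 kb upstream at a -log10 q of at least 10, and the untreated WT peak at SULF2 when the summit had to lie within 100 bp. The peak near PGF called for K120R p53 alone, with a -log10 q of 4.01, was lost at a threshold of 5. With an insert allowed, the best match at SULF2 went from 1 mismatch to 0. No paired analysis was possible because each condition has 1 library. A peak that was not called may still have fragments, and the spread between experiments is unknown.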
